A study of Mus musculus with 6 samples.

Results

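Blood and lymphatic vessels of the intestinal wall were followed through 10 genes of endothelial cells, out of 23402 genes in the deposited expression table. The genes were chosen by name. Pecam1, Cdh5, Kdr, Plvap and Vwf are here called blood genes, and Lyve1, Prox1, Flt4, Pdpn and Reln lymphatic genes. These names are labels: junctional genes such as Pecam1 and Cdh5 belong to the endothelium of all vessels. The part of lymphatic endothelium in the blood genes was not measured. All 10 passed a filter of 1 FPKM on the mean over the 6 libraries, as did 12695 genes in all. FPKM, fragments per kilobase of transcript scaled to library size, is a level per transcript length, so levels of different genes can be set side by side. The libraries came from whole terminal ileum of mice aged 6 weeks that drank dextran sodium sulfate (DSS), an agent that injures the intestinal lining, until sampling on day 6. All mice were Il17rafl/fl, that is, both copies of the interleukin-17 receptor gene Il17ra carried sites for removal by the recombinase Cre. In 3 mice (Il17rafl/fl;Atoh1-cre+, here Cre-positive) Cre was driven by Atoh1, a transcription factor gene of the secretory cells of the intestinal epithelium. The other 3 (Il17rafl/fl;Atoh1-cre-, here Cre-negative) were littermates without Cre. Every animal received DSS, so its own effect could not be measured.

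Endothelial cells line all vessels and are held together by junctional cadherin. Blood endothelium grows and becomes permeable in response to VEGF-A through the receptor encoded by Kdr, and the capillaries under the intestinal epithelium carry fenestrae closed by diaphragms. Lymphatic endothelium is specified by the transcription factor PROX1 and responds to VEGF-C and VEGF-D through the receptor encoded by Flt4, and each villus holds a lymphatic vessel, the lacteal, that carries absorbed fat. Several of these genes are not restricted to endothelium. Among other sources, Pecam1 and Vwf are also made in the platelet lineage, Lyve1 in some macrophages, and Pdpn in lymphoid stroma and mesothelium. This list is not complete, and sources of the other members outside endothelium were not examined.

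The libraries listed 16317 to 16547 genes above 0. Steps among the low values corresponded to roughly 8000000 to 9400000 fragments per library, an estimate. The epithelial genes Vil1 (568 to 782 FPKM) and Epcam (468 to 720 FPKM) were high in all 6 libraries. Of the defining genes of terminal ileum, the bile acid binding protein gene Fabp6 stood at only 0.316 to 9.79 FPKM and the bile acid transporter gene Slc10a2, also named after its values were seen, at 0.0669 to 1.94 FPKM. Gata4, a transcription factor gene of the more proximal small intestine looked up after these values were seen, stood at 37.1 to 49.3 FPKM. The position of the samples along the intestine was thus not borne out by its marker genes. Il17ra ranged from 5.91 to 6.53 FPKM in the Cre-negative and from 6.07 to 8.36 FPKM in the Cre-positive libraries, so it did not check the genotype labels in whole tissue, and directions below are those of the libraries as labelled.

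The region before the start of a gene holds part of the sequence that sets its level. RefSeq (GRCm38.p6) promoter entries matched 5 of the 10 genes, Kdr, Prox1, Pdpn, Reln and Flt4. The Flt4 entry lay inside the annotated gene and was not searched. Pecam1, Cdh5, Plvap, Vwf and Lyve1 had no entry. Factors of the ETS family, among them ERG and FLI1 of endothelium, bind the core letters GGAA. The 2 windows shown are those of the blood receptor gene Kdr, which varied with the other blood genes below, and of the lymphatic regulator Prox1, which did not. Both lie outside the annotated gene, and capitals mark GGAA or its reverse complement TTCC.
Kdr, chr5:75978459-75978705, minus strand: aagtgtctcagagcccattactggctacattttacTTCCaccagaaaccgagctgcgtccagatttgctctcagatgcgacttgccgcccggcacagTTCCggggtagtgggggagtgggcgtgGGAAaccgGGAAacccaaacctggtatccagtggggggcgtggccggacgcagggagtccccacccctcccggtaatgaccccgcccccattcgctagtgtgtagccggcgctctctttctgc
Prox1, chr1:190170828-190171077, minus strand: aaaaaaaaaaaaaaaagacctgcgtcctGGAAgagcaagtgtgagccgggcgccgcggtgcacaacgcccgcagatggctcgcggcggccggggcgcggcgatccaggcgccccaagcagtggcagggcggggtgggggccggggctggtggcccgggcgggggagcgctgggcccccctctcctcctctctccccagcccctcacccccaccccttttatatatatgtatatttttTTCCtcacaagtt
The Kdr window of 247 bases held 4 such cores and the Prox1 window of 250 bases held 2. The windows of Pdpn and Reln, searched but not shown, held 3 and 2. The median over 32851 promoter windows of 250 bases was 3, and 93.4% held at least 1. The longer form AGGAAG or CTTCCT, which contains the core, was in none of these member windows and in 29.5% of all windows. The cores are matches of letters, no binding was measured, and a relation of core number to the levels was not tested.

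The blood genes were the more abundant side in every library, and no member differed between the groups beyond the spread of the libraries. By limma's test, 0 of the 10 genes had an adjusted p under 0.05 and 0 had an unadjusted p under 0.05. Over all 12695 genes the adjusted count was also 0 (0%), and at an unadjusted p under 0.05 it was 323 genes higher (2.54%) and 136 lower (1.07%) in the Cre-positive libraries. In 0 of the 10 genes did all Cre-positive values lie on 1 side of all Cre-negative values, against 8.37% of all genes. All 10 adjusted p values were 0.998 (limma, Benjamini-Hochberg over all genes). In bulk tissue, fewer cells of a type and less RNA per cell cannot be told apart. Nothing in the labels says whether libraries differed in preparation date or sequencing run.

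Pecam1, which encodes the adhesion molecule CD31 of endothelial junctions (chromosome 11 from 106654217 to 106750628, GRCm38), stood at 14.5, 15.9 and 12.9 FPKM in Cre-negative libraries 1 to 3 and at 16.2, 24.04 and 13.03 FPKM in Cre-positive libraries 1 to 3. The highest value was that of Cre-positive 2, and the groups overlapped. Its log2 fold change, Cre-positive minus Cre-negative on the log2(FPKM + 1) scale, was 0.24 (SE 0.20, 95% interval -0.23 to 0.71). Leaving out Cre-positive 2 took the estimate to 0.012.

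Cdh5 encodes VE-cadherin, the cadherin of endothelial junctions (chromosome 8 from 104101625 to 104144511). It stood at 7.08, 8.40 and 6.64 FPKM in the Cre-negative and 6.53, 10.8 and 6.07 FPKM in the Cre-positive libraries. Both the highest and the lowest value belonged to Cre-positive libraries, 2 and 3. Between the groups the log2 fold change was 0.04 (SE 0.20, 95% interval -0.43 to 0.50) and -0.19 without Cre-positive 2.

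Kdr, the gene of VEGF receptor 2 (chromosome 5 from 75932827 to 75978458), stood at 6.88, 7.70 and 5.84 FPKM in the Cre-negative and 6.25, 11.6 and 6.28 FPKM in the Cre-positive libraries. Apart from Cre-positive 2, the Cre-positive values lay inside the Cre-negative range. The log2 fold change was 0.17 (SE 0.22, 95% interval -0.35 to 0.69), and -0.10 without that library.

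Plvap encodes the protein of the fenestral diaphragms (chromosome 8 from 71497765 to 71511752) and was the most abundant member in each library. It stood at 37.9, 46.2 and 32.7 FPKM in the Cre-negative and 33.5, 54.4 and 26.4 FPKM in the Cre-positive libraries. Cre-positive 2 was highest and Cre-positive 3 lowest, and the log2 fold change was -0.08 (SE 0.25, 95% interval -0.66 to 0.50). Leaving out Cre-positive 2 gave -0.36, leaving out Cre-positive 3 gave 0.15, and leaving out Cre-negative 2 gave 0.047.

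Vwf encodes von Willebrand factor, the glycoprotein that tethers platelets to damaged vessel walls (chromosome 6 from 125546774 to 125686679). It stood at 4.30, 6.30 and 4.19 FPKM in the Cre-negative and 4.14, 9.32 and 4.78 FPKM in the Cre-positive libraries. With a ratio of 2.25 between its highest and lowest library, it varied more than any other member. The log2 fold change was 0.20 (SE 0.27, 95% interval -0.42 to 0.83), and -0.10 without Cre-positive 2. Of the markers of the platelet lineage, Pf4 stood at 7.82, 4.29 and 1.79 FPKM in the Cre-negative and 1.51, 3.27 and 2.51 FPKM in the Cre-positive libraries, highest in Cre-negative 1. Itga2b stood at 0.414 to 0.819 FPKM, Gp9 at 0 to 0.540 FPKM, and Gp1ba, named because of this value, at 0 in all 6 libraries. The list summed to 26.7 to 29.7 FPKM in the Cre-negative and 26.6 to 34.6 FPKM in the Cre-positive libraries, mostly Gp1bb, and 0 of its 2 tested members were highest in Cre-positive 2. Gp1bb, named after its values were seen, was higher in each Cre-positive library (24.1, 28.1 and 30.8 FPKM) than in any Cre-negative one (20.8, 22.9 and 23.9 FPKM), with a limma p of 0.0407 unadjusted and 0.998 adjusted, where 5.77% of all genes lay above in this way. The part of the platelet lineage in Vwf was not tested.

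**Figure D1:**
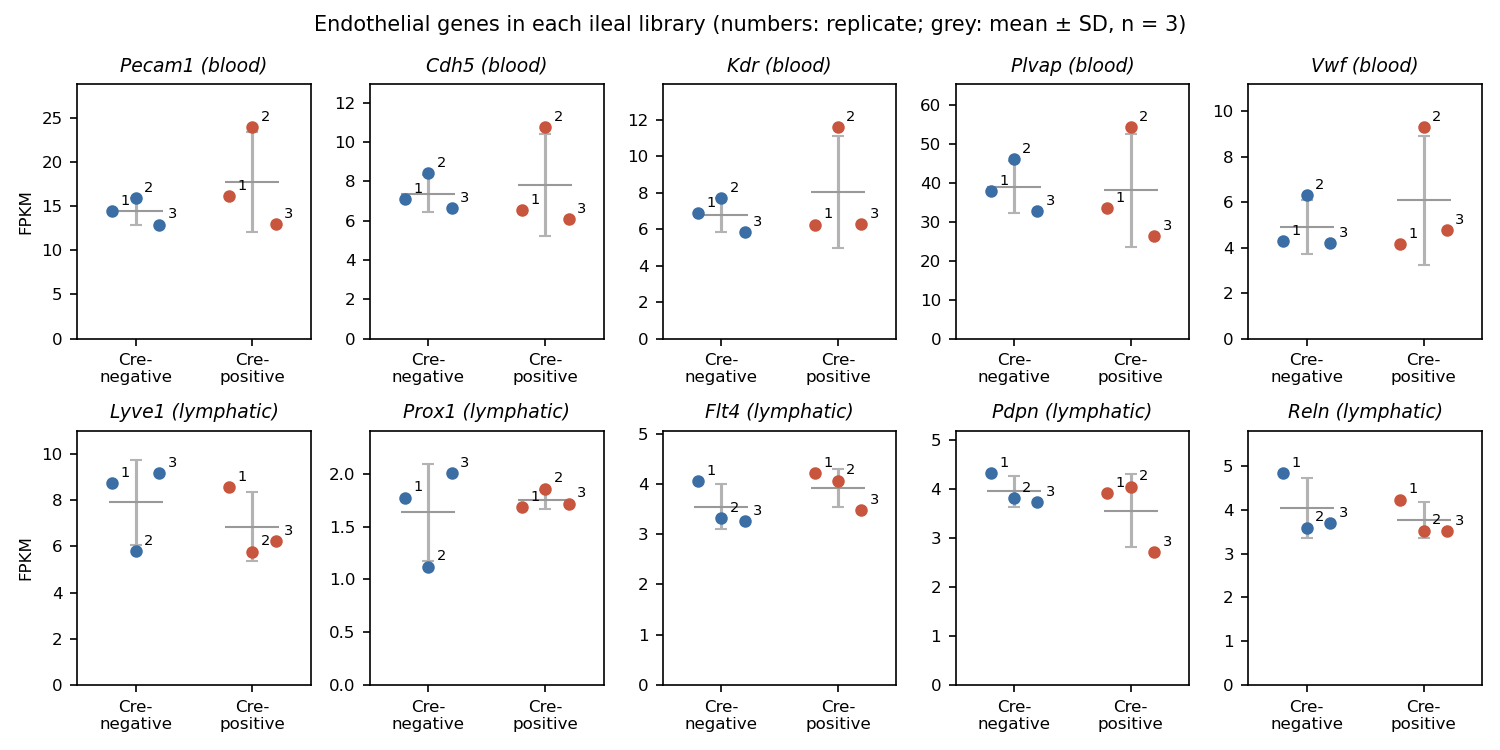
FPKM (vertical axes, from 0) of the 5 blood genes (top) and the 5 lymphatic genes (bottom) in the Cre-negative (blue) and Cre-positive (red) libraries, numbered by replicate, with the group mean and SD (n = 3) in grey. Library 2 is the highest of its group for each blood gene in both groups, while the lymphatic genes show no such order.

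The lymphatic genes did not follow the blood genes. Lyve1, which encodes a hyaluronan receptor (chromosome 7 from 110850607 to 110863239), stood at 8.74, 5.79 and 9.16 FPKM in the Cre-negative and 8.57, 5.77 and 6.21 FPKM in the Cre-positive libraries. Its lowest values were those of Cre-positive 2 and Cre-negative 2, the libraries in which the blood genes were highest in their groups. The log2 fold change was -0.17 (SE 0.19, 95% interval -0.63 to 0.28). Macrophage markers, a possible second source of Lyve1, summed to 36.7 to 46.1 FPKM in the Cre-negative and 41.7 to 52.7 FPKM in the Cre-positive libraries, and their part in Lyve1 was not tested.

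Prox1, the gene of the transcription factor that specifies lymphatic endothelium (chromosome 1 from 190118035 to 190170714), was the least abundant member. It stood at 1.78, 1.12 and 2.00 FPKM in the Cre-negative and 1.69, 1.86 and 1.72 FPKM in the Cre-positive libraries. Cre-negative 2 stood apart below the other 5, at a level that rested on about 86.5 fragments by the depth estimate, a counting error of 10.7%. The log2 fold change was 0.08 (SE 0.16, 95% interval -0.29 to 0.45), and -0.07 without Cre-negative 2. Whether cells other than lymphatic endothelium added to Prox1 was not tested.

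Flt4, the gene of VEGF receptor 3 (chromosome 11 from 49609263 to 49652739), stood at 4.06, 3.33 and 3.27 FPKM in the Cre-negative and 4.21, 4.07 and 3.48 FPKM in the Cre-positive libraries. It was the steadiest member, with a ratio of 1.29 between highest and lowest library. Its log2 fold change was 0.11 (SE 0.12, 95% interval -0.18 to 0.40).

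Pdpn encodes podoplanin, a sialomucin that binds the platelet receptor CLEC-2 (chromosome 4 from 143267431 to 143299564). It stood at 4.33, 3.82 and 3.74 FPKM in the Cre-negative and 3.93, 4.06 and 2.71 FPKM in the Cre-positive libraries. Only Cre-positive 3 lay below the Cre-negative range, on an estimated 39.4 fragments (counting error 15.9%), fewer than for any other member. The log2 fold change was -0.13 (SE 0.15, 95% interval -0.48 to 0.21), and 0.010 without Cre-positive 3. Lymphoid stroma, which also makes podoplanin, left marker sums of 4.004 to 5.86 FPKM in the Cre-negative libraries and of 27.6, 25.2 and 2.74 FPKM in Cre-positive 1 to 3. Mesothelial markers were low, at 1.03 to 2.37 and 0.741 to 1.85 FPKM in sum, and the part of either in Pdpn was not tested.

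Reln encodes reelin, a secreted matrix glycoprotein made by lymphatic endothelium (chromosome 5 from 21884454 to 22344702). It stood at 4.83, 3.596 and 3.70 FPKM in the Cre-negative and 4.23, 3.53 and 3.52 FPKM in the Cre-positive libraries. Library 1 was the highest in each group. Its log2 fold change was -0.08 (SE 0.14, 95% interval -0.39 to 0.24).

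**Figure D2:**
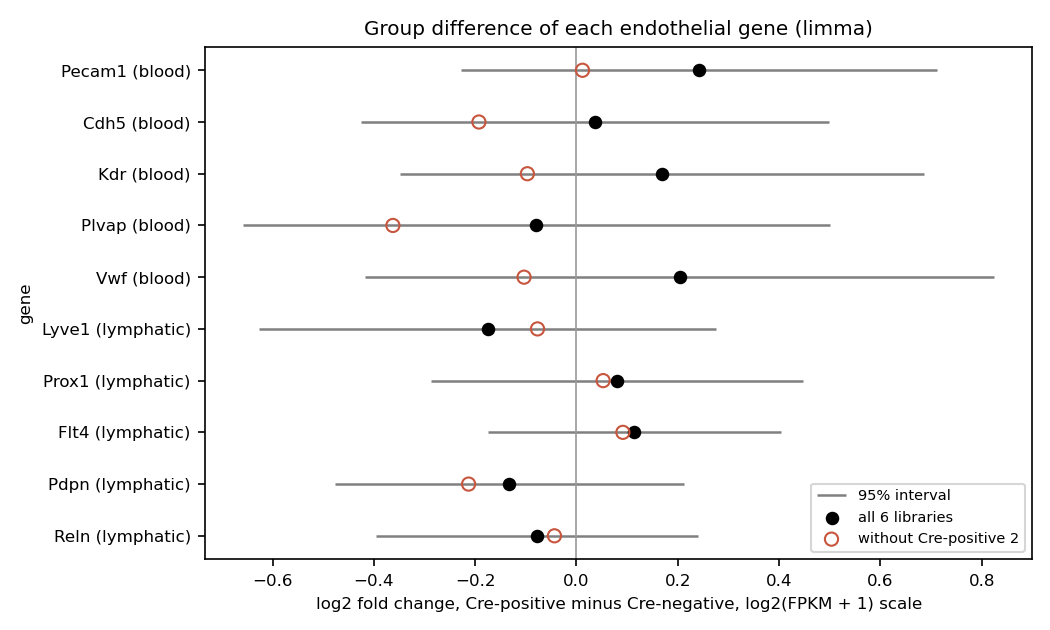
Log2 fold change (Cre-positive minus Cre-negative, log2(FPKM + 1) scale) of each member with its 95% interval from limma (black, grey) and the estimate without Cre-positive 2 (open red circles). All intervals span 0. Cre-positive 2 is the highest library for each of the 5 blood genes, so leaving it out necessarily moves their estimates down.

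By mean level over the 6 libraries the order was Plvap (38.5 FPKM), Pecam1 (16.1), Cdh5 (7.58), Kdr (7.43), Lyve1 (7.38), Vwf (5.51), Reln (3.90), Pdpn (3.76), Flt4 (3.74) and Prox1 (1.69). Plvap lay above Pecam1, Pecam1 above Cdh5, and Flt4 above Prox1 in all 6 libraries with no overlap of their ranges. The neighbours from Cdh5 through Vwf to Flt4 overlapped, and each led the next in only 3 or 4 of the 6 libraries.

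Blood genes were set against lymphatic genes within each library, first as 25 pairs of 1 blood and 1 lymphatic gene. The blood gene was the higher in 20, 25 and 22 pairs in Cre-negative 1 to 3 and in 20, 25 and 23 pairs in Cre-positive 1 to 3. The mean log2(FPKM + 1) of the 5 blood genes exceeded that of the 5 lymphatic genes by 1.12, 1.69 and 1.09 in the Cre-negative and by 1.12, 1.98 and 1.26 in the Cre-positive libraries. The group means of this difference were 1.30 ± 0.34 and 1.45 ± 0.46 (SD, n = 3 each). They lay 0.15 apart, less than either SD. The surplus of blood genes was widest in Cre-positive 2 and next in Cre-negative 2. With the median of the 5 genes in place of the mean the group values were 0.78 and 0.85.

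The receptors give the same comparison for a single pair of genes and without dependence on scaling between libraries. The ratio of Flt4 to Kdr was 0.590, 0.432 and 0.559 in the Cre-negative and 0.673, 0.350 and 0.555 in the Cre-positive libraries. On the log2 scale the group means were -0.94 ± 0.24 and -0.98 ± 0.49 (SD, n = 3 each). Their difference was -0.04 (p = 0.8 by exact permutation of the libraries, two-sided), and no split of 3 and 3 libraries can give a p below 0.1. Cre-positive 1 held the highest ratio and Cre-positive 2 the lowest, and the difference turned to 0.23 without Cre-positive 2. It was 0.047 without Cre-negative 1 and 0.0078 without Cre-negative 3.

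**Figure D3:**
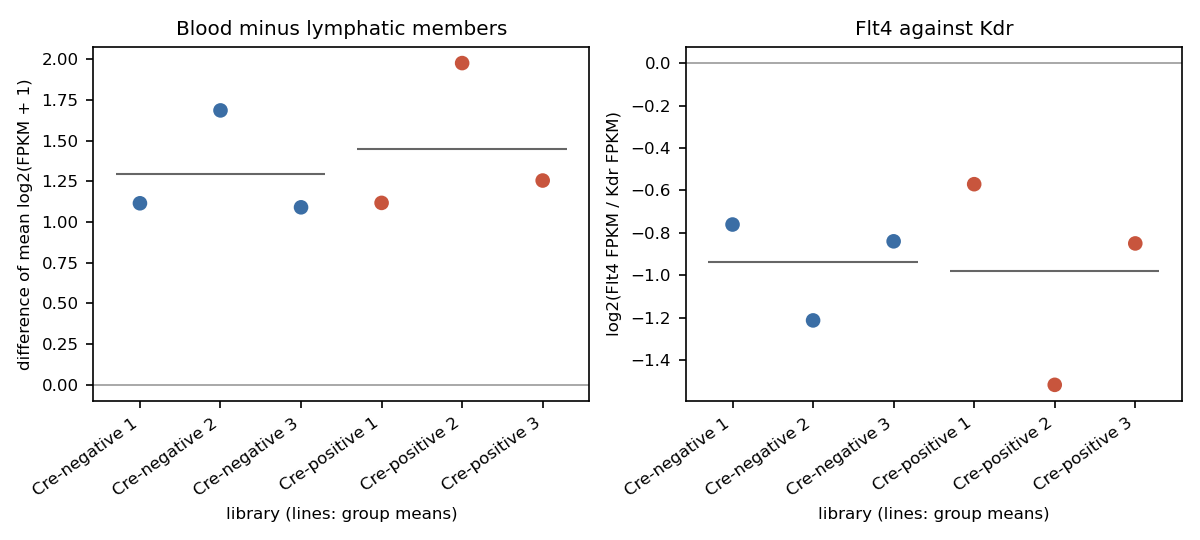
Left, mean log2(FPKM + 1) of the blood genes minus that of the lymphatic genes, and right, log2 of the ratio of Flt4 to Kdr, for each library (blue, Cre-negative; red, Cre-positive) with group means as lines. Cre-positive 2 and then Cre-negative 2 have the widest surplus of blood genes and the lowest ratios, and the group means nearly coincide.

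The variation among the blood genes ran along libraries. All 5 were highest in Cre-positive 2, as were 19.0% of all tested genes and 0 of the 5 lymphatic genes. Relative to the median of the other 5 libraries, the blood genes in Cre-positive 2 stood at 1.62 to 2.17 times (median 1.66) and the lymphatic genes at 0.674 to 1.17 times (median 1.06). In Cre-negative 2 the blood genes stood at 1.10 to 1.46 times and the lymphatic genes at 0.632 to 0.972 times. Both libraries were the highest of their groups for all 5 blood genes, as for 9.14% of all tested genes and 0 lymphatic genes. All 5 blood genes remained highest in Cre-positive 2 under median-of-ratios, equal-sum and quantile scaling.

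A separate list of pan-endothelial genes went the same way in Cre-positive 2, but less so in Cre-negative 2. It held 25 genes, of which 22 passed the filter on low values, and 18 of these were highest in Cre-positive 2 (15 to 19 under the other scalings). Both library 2 samples were the highest of their groups for 9 of the 22, beside 9.14% of all tested genes. The list summed to 104 FPKM in Cre-negative 1 and 101 FPKM in Cre-negative 2. Tie1, an orphan receptor of endothelium, stood at 3.85, 4.64 and 3.30 FPKM in the Cre-negative and 3.61, 5.94 and 3.46 FPKM in the Cre-positive libraries. Esam, a junctional adhesion molecule, stood at 7.34, 8.96 and 8.67 against 7.33, 13.5 and 7.92 FPKM. Tek, the angiopoietin receptor, stood at 3.65, 3.70 and 2.75 against 2.92, 4.08 and 2.84 FPKM. For all 3, Cre-positive 2 was the top library. The 4 tested exceptions, named after their values were seen, were Cldn5 and Clec14a (highest in Cre-negative 1), Ecscr (Cre-positive 3) and Lyl1 (Cre-positive 1). Between the groups 0 of the 22 passed the adjusted threshold and 0 had an unadjusted p under 0.05. Their median log2 fold change was 0.09, beside 0.03 for all tested genes.

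**Figure D4:**
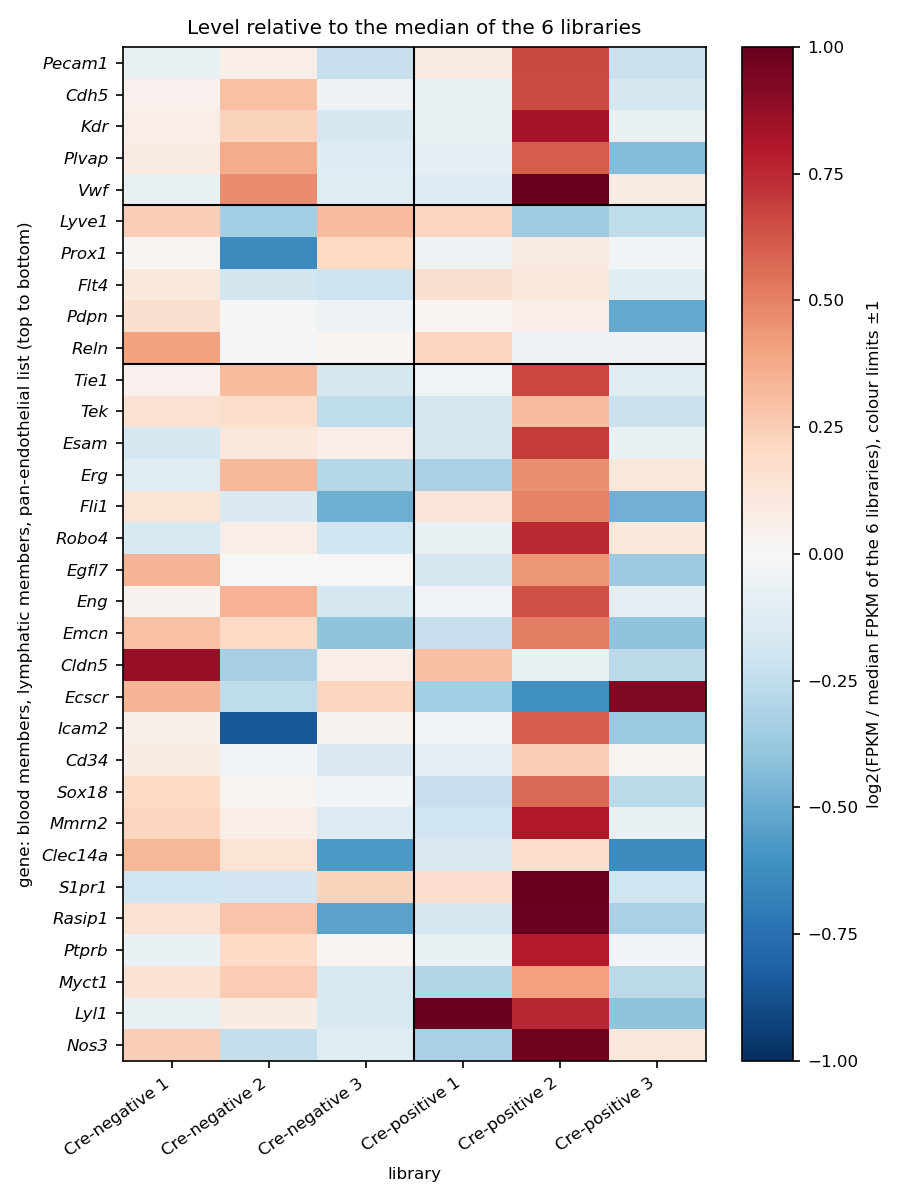
Log2 of the level in each library (columns) over the median of the 6 libraries, for the blood genes, the lymphatic genes and the 22 tested pan-endothelial genes (rows, top to bottom), with colours limited at ±1. Red is above that median. Cre-positive 2 is the highest library, and so red, for the blood genes and 18 of the 22 pan-endothelial genes. Its column is also red in some rows where another library is highest. Among the lymphatic genes it is red for Prox1, Flt4 and Pdpn, and not for Lyve1 and Reln.

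The marker sums of other cells differed in how they lay across the libraries. Smooth muscle markers summed to 629 to 842 FPKM in the Cre-negative libraries and to 683, 525 and 621 FPKM in Cre-positive 1 to 3, lowest in Cre-positive 2. Fibroblast markers summed to 211 to 299 and 261 to 290.5 FPKM, with 0 of 6 highest in Cre-positive 2. The markers of mural cells, which ensheathe small vessels, summed to 93.0 to 133 and 104 to 117 FPKM. Among them Notch3 was 1.96 times and Pdgfrb 1.32 times the median of the other libraries in Cre-positive 2, and Rgs5 1.08 times. Cspg4 (1.30 times), Abcc9 (0.963 times) and Kcnj8 (0.805 times) were added after their values were seen. Of the 6 tested mural markers 3 were highest in Cre-positive 2. B cell markers summed to 7.29 to 16.1 FPKM in the Cre-negative libraries and to 65.6, 79.6 and 11.2 FPKM in Cre-positive 1 to 3. In Cre-positive 1 the blood genes stood at 0.867 to 1.12 times the median of the other libraries (median 0.910), with only Pecam1 above it. Red cell genes summed to 21.03 to 30.9 and 8.79 to 26.7 FPKM, and Hba-a1 was lowest in Cre-positive 1. The highest sum, that of Cre-negative 1, held 10.3 FPKM of Hbb-bs, a gene at no more than 0.00665 FPKM in any other library. The part of B cell, mural or red cell content in the blood genes was not tested.

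No gene on the lists of vessel types passed the adjusted threshold between the groups either. Of the arterial genes 6 of 8 passed the filter, 0 reached the adjusted threshold, and the median log2 fold change was -0.0032. Efnb2, an arterial ephrin that is also made by other cells, was lower in each Cre-positive library (20.1 to 22.998 FPKM) than in any Cre-negative library (24.5 to 27.7 FPKM). Its limma p was 0.0355 unadjusted and 0.998 adjusted, and 2.60% of all genes lay below in this way. Gja5 stayed under the filter in the mean, and Gja4, a connexin, averaged 1.83 ± 0.50 and 1.82 ± 0.87 FPKM (SD, n = 3 each). Of the venous and venular genes 5 of 7 were tested and 0 passed, with a median log2 fold change of 0.20. Ackr1, the chemokine-binding receptor of venules listed under its older symbol Darc, stood at 2.19, 2.56 and 2.13 against 2.04, 4.76 and 2.09 FPKM, high in Cre-positive 2 alone. Selp lay under the filter, and Ephb4, a venous ephrin receptor, averaged 21.4 ± 2.37 and 23.7 ± 4.73 FPKM. Nr2f2, on both the venous and the lymphatic list, was named after its values were seen. It was higher in each Cre-positive library (5.17 to 5.89 FPKM) than in any Cre-negative library (4.49 to 5.09 FPKM). Its limma p was 0.142 unadjusted and 0.998 adjusted, and 5.77% of all genes lay above in this way. All 9 capillary genes were tested and 0 passed (median log2 fold change 0.09). Fabp4, a fatty acid binding protein gene of capillaries and adipocytes, was named after its values were seen. It was lower in each Cre-positive library (34.2 to 39.8 FPKM) than in any Cre-negative library (44.8 to 62.9 FPKM), as were 2.60% of all genes. The limma p of Fabp4 was 0.00494 unadjusted and 0.998 adjusted. Adipocyte markers summed to 36.9 to 133.5 FPKM in the Cre-negative and 34.5 to 49.4 FPKM in the Cre-positive libraries, and their part in Fabp4 was not tested. Gpihbp1, which anchors lipoprotein lipase on capillaries, averaged 1.97 ± 0.22 and 1.84 ± 0.70 FPKM. Rgcc was again highest in Cre-positive 2 at 8.31 FPKM, and Cd36, a fatty acid carrier also made by enterocytes, ranged from 16.8 to 41.2 FPKM without following the blood genes.

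Of 13 further lymphatic genes 12 were found in the table and 6 passed the filter, of which 0 reached the adjusted threshold (median log2 fold change 0.14). Mmrn1, a multimerin of lymphatic endothelium, stood at 10.3, 7.06 and 10.1 FPKM in the Cre-negative and 9.41, 6.75 and 7.10 FPKM in the Cre-positive libraries. Its libraries of lowest level, Cre-positive 2 and Cre-negative 2, were those of Lyve1, with Cre-positive 3 close to the latter. Other genes of this list went the other way. Of the 6 tested, 2 were highest in Cre-positive 2, Nrp2 (9.40 FPKM) and Nr2f2 (5.89 FPKM), beside 19.0% of all tested genes. Ccl21a, a chemokine of lymphatic vessels and of lymphoid stroma, stood at 15.4, 9.09 and 10.3 against 32.8, 28.2 and 9.20 FPKM. It was high in the same libraries, Cre-positive 1 and 2, as the lymphoid stroma and B cell markers. Nrp2, a co-receptor for VEGF-C, averaged 7.53 ± 1.04 FPKM in the Cre-negative and 8.90 ± 0.49 FPKM in the Cre-positive libraries (SD, n = 3), a log2 difference of 0.22 with an SE of 0.12.

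The ligands showed no difference between the groups that passed the test. Of 10 VEGF ligands, co-receptors and activators 8 were tested and 0 passed (median log2 fold change 0.05). Vegfa, the ligand of the Kdr receptor, stood at 15.8, 28.3 and 29.9 FPKM in the Cre-negative and 22.3, 23.7 and 17.4 FPKM in the Cre-positive libraries, and its Cre-positive values all lay within the Cre-negative range. Vegfc, the ligand of the Flt4 receptor, averaged 4.32 ± 0.37 and 4.08 ± 0.84 FPKM (SD, n = 3 each). Flt1, the decoy receptor for VEGF-A on blood endothelium, stood at 3.95, 5.48 and 4.18 against 3.21, 7.09 and 4.01 FPKM and followed the blood genes in both library 2 samples. Of 8 angiopoietin and adrenomedullin genes 7 were tested and 0 passed (median -0.05). Angpt2, an angiopoietin of remodelling vessels, averaged 1.27 ± 0.17 and 0.991 ± 0.23 FPKM, was lowest in Cre-positive 2 at 0.727 FPKM, and Angpt1 lay under the filter.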

How the data were processed

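RNA sequencing of 6 libraries, 1 per mouse, was used. The authors deposited FPKM values with 1 column per library, and the unit was read from the table's name and the tool names. Per the submitters' processing notes the tools included Cuffnorm and Cufflinks, STAR, Trimmomatic, FastQC, bedtools and SAMtools, with the builds mm10 and GRCm38. Sources used here give no version, setting or scaling between libraries. The library kit was the strand-keeping NEBNext Ultra II Directional, per the labels' protocols. Whether counting used strand is not given.

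Columns were matched to samples by genotype and number. A mean of 1 FPKM or more was required (12695 of 23402 genes), and testing was on log2(FPKM + 1), which understates changes of low genes, with limma 3.58.1 (R 4.3.3) with an intensity trend, two-sided, Benjamini-Hochberg adjustment over all tested genes and a threshold of 0.05. The test was tried on simulated data. The p values measure the spread between mice. The rest used numpy 2.4.6 and pandas 2.3.3 under Python 3.11.15, with plots from matplotlib 3.10.9.

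The members and the 19 gene lists were chosen with earlier results of these data known. The rule for named genes was the members, the first 3 of each list and any listed gene past the threshold. Other genes are said to be added, and the marker lists of other cell types are mostly given by their sums. Of 152 list entries, 145 matched by symbol and 4 by an older symbol through RefSeq. The other 3 were left out, 1 of them because its older symbol now names another gene. Positions and exon lengths are GENCODE M21. Depth was estimated from the lowest step of FPKM times length in genes of a single transcript of at least 1000 bases, and fragments per member from the summed exon length, an upper estimate. Same-numbered libraries did not deviate together (correlations across genes of -0.13, 0.034 and -0.113), so numbers were not treated as pairs. Alternatives were other pseudocounts (0.1 and 5), filters (none and 5 FPKM) and scalings, limma without trend or with array weights, a replicate block, and leaving out each library.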

Additional observations from a re-analysis of the deposited data

How the results depend on the processing

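No member passed the threshold in any of 156 alternative fits, the smallest adjusted p being 0.170 (Prox1 with limma and array weights). Over all genes the count past the threshold was 0 without a filter, with a filter of 5 FPKM, without trend and under median-of-ratios or quantile scaling. It was 2 with a pseudocount of 0.1, 2 with one of 5, 2 with equal-sum scaling, 24 with array weights, 1 with the replicate block, and 0 to 46 with each library left out, the 46 without Cre-positive 3. The block changed no member's call and left the Flt4 to Kdr difference at -0.04 (exact sign-flip p = 0.75). With so few pairs the sign-flip test could not reach a p under 0.05. Equal-sum scaling moved the median of all genes to 0.13 on the log2 scale. The direction turned in 13 of the 156 member fits, each with an estimate near 0 or a library left out. Under scalings and weights these were Cdh5 (-0.016, quantile), Plvap (0.033, equal-sum), Reln (0.015, equal-sum) and Lyve1 (0.0068, array weights). With each library left out the estimates ranged from -0.19 to 0.17 for Cdh5, -0.10 to 0.30 for Kdr, -0.36 to 0.15 for Plvap, -0.10 to 0.40 for Vwf, -0.068 to 0.18 for Prox1, -0.21 to 0.010 for Pdpn and -0.15 to 0.032 for Reln. The Flt4 to Kdr difference ranged from -0.25 to 0.23. The blood minus lymphatic level fell to 0.78 (Cre-negative) and 0.85 (Cre-positive) with the median of 5 genes, and under equal-sum scaling, chosen after seeing the data, 1 lymphatic gene was highest in Cre-positive 2. The widest member interval, that of Vwf, reached 0.83 on the log2 scale, and the narrowest, that of Flt4, spanned -0.18 to 0.40.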
